A study of Mus musculus with 16 samples.

Results

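The costimulatory receptors of CD8+ T cells were described here as 10 genes, taken by symbol from a deposited matrix of raw gene counts: Tnfrsf9, Tnfrsf4, Tnfrsf18, Tnfrsf8, Tnfrsf1b, Tnfrsf14, Cd27, Cd28, Icos and Cd226. The matrix held 34573 gene symbols, of which 14332 passed a filter on low counts. All 10 receptors were among them, Tnfrsf8 only through its counts in activated cells. RNA-seq came from CD8+ T cells of C57BL/6 mouse spleen in 4 states, with 3 libraries per state and 0.2 M cells per library. Tn cells were naive cells taken at day 0 as CD8+, CD44- and CD62L+. The other 3 states came from naive cells cultured with antibodies against CD3e and CD28 at 10 µg/ml each, and with IL-2 at 300 U/ml after the first night. Of these, Teff1 (day 2) and Teff2 (day 5) were sorted for PD-1 without TIM-3 (PD-1+, TIM-3-), and Tex (day 5) for both proteins (PD-1+, TIM-3+). All activated states therefore shared the same stimulus, which includes an antibody against the product of one of the 10 genes, Cd28. The states are products of culture rather than of infection or tumour, and the labels do not say whether the libraries of a state came from separate mice. The p-values below thus measure the spread between libraries, which may be technical.

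A T cell that recognises antigen through its receptor also reads costimulatory signals from other surface receptors. CD28 and ICOS belong to the immunoglobulin superfamily and signal through phosphoinositide 3-kinase. CD28 shares its ligands CD80 and CD86 with the inhibitory receptor CTLA-4, and CD226 shares its ligands with the inhibitory receptors TIGIT and CD96. The remaining receptors belong to the TNF receptor superfamily, bind trimeric ligands of the TNF family, recruit TRAF adaptors and lead to NF-kB activity. CD27, HVEM (Tnfrsf14) and TNFR2 (Tnfrsf1b) are known on resting T cells, whereas CD137 (Tnfrsf9), OX40 (Tnfrsf4), GITR (Tnfrsf18) and CD30 (Tnfrsf8) are known as receptors induced or increased by activation.

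Library totals ran from 14.7 to 21.2 M counts. Levels are given as CPM, the usual depth-scaled counts, with library sizes scaled by the TMM method. Transcripts of the sorted proteins followed the labels: Havcr2, which encodes TIM-3, had a level of 27.9 ± 14.9 CPM in Tex, against 0.433 ± 0.177 CPM in Teff2 (SD, n = 3 each), and the 8 CD8 T cell markers summed to between 2471 and 5153 CPM in the 12 libraries, with none at 0. Markers of other cells were not absent from the Tn libraries. The 8 B cell markers summed to 1237, 580 and 2035 CPM in Tn replicates 1, 2 and 3, against 90.5 to 305 CPM in the activated libraries, and the 5 markers of MHC class II antigen-presenting cells to 1390, 119 and 2107 CPM, against 29.2 to 125 CPM. The 9 macrophage and monocyte markers summed to 282, 73.0 and 146 CPM in Tn and to 4.33 to 11.6 CPM in the activated libraries. At day 5 replicate 1 stood apart: 13 genes of the G2 and M phases summed to 979 CPM in Teff2 replicate 1 and 1209 CPM in Tex replicate 1, against 3571 to 4165 CPM in the other 4 day 5 libraries.

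Of the 10 genes, 6 lie on chromosome 4 of the mouse assembly mm10 (GRCm38.p6), within 10.8 Mb. Tnfrsf1b (chr4:145212368-145246870) and Tnfrsf8 (chr4:145267132-145315164) are neighbours 20.3 kb apart, with no protein-coding gene between them. Tnfrsf4 (chr4:156013595-156016613) and Tnfrsf18 (chr4:156026322-156028894) are neighbours 9.71 kb apart, again with no protein-coding gene between them. Tnfrsf9 (chr4:150920155-150946104) and Tnfrsf14 (chr4:154918487-154928620) lie between these pairs. Cd28 (chr1:60746388-60773359) and Icos (chr1:60960773-61000322) flank the inhibitory receptor gene Ctla4 (chr1:60909025-60915832) on chromosome 1, and Cd27 (chr6:125232620-125237136) lies on chromosome 6. Tnfrsf4 overlaps Sdf4, Tnfrsf18 overlaps Gm16008, and Cd27 overlaps E130112N10Rik and Mir8113. These overlaps are of whole gene spans, and whether exons overlap was not examined. The counting is not stated to use strand, so reads in any exon bases that the genes share cannot be told apart.

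RefSeq windows of 250 bases before a transcription start were given for 7 of the 10 genes, 8 windows in all, on assembly GRCm38.p6. They were searched on both strands for the NF-kB consensus, for the AP-1 motif TGANTCA and for the NFAT core GGAAA, since these factors act below the T cell receptor and costimulatory receptors. The NF-kB and the AP-1 motif were both found in 2 windows, that of Tnfrsf8 and that of the second of 2 Tnfrsf9 starts, and in none of the other 6. Over all 32851 windows of the table, 7.25% held the NF-kB consensus, 6.75% the AP-1 motif and 55.6% the NFAT core, which was present in 6 of the 8 windows here. The windows of Tnfrsf9 and Tnfrsf8 are shown with those of Tnfrsf18 and Tnfrsf1b. Tnfrsf18, another chromosome 4 gene, was called higher in the activated states, and its window has neither the NF-kB nor the AP-1 motif. Tnfrsf1b is the gene next to Tnfrsf8, and its window has none of the 3 motifs. The Tnfrsf9 window ends at the base before the second start (chr4:150927749-150927998, plus strand) and lies inside the gene. The Tnfrsf8 window is chr4:145315165-145315414 (minus strand), that of Tnfrsf18 chr4:156026072-156026321 (plus strand) and that of Tnfrsf1b chr4:145246871-145247120 (minus strand). Each is written 5′ to 3′ on the gene's strand, and capitals mark the NF-kB and AP-1 matches. The capitals nearer the 5′ end are 2 overlapping NF-kB matches and those nearer the 3′ end an AP-1 match. A match describes letters only, and binding was not measured.
Tnfrsf9: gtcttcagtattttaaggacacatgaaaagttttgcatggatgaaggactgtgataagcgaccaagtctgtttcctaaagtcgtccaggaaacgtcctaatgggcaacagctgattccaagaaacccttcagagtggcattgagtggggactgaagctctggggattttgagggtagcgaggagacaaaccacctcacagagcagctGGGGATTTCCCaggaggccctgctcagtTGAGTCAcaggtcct
Tnfrsf8: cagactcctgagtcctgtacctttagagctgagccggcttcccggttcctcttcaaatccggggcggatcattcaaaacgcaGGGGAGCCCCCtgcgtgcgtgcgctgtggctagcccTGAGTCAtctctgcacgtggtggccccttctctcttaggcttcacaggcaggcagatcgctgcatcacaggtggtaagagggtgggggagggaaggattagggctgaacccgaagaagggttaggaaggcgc
Tnfrsf18: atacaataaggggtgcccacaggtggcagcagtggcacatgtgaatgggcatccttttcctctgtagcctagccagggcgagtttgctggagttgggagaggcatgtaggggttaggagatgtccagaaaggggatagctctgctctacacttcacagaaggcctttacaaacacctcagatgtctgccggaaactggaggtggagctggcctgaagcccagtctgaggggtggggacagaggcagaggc
Tnfrsf1b: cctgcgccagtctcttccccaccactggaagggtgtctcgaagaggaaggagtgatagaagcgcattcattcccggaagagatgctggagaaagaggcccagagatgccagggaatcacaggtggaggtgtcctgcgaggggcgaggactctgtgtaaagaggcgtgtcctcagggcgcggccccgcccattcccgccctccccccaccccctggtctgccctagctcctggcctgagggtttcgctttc

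Most of the receptors differed between naive and activated cells. At day 2, 6 of the 10 receptors were called higher in Teff1 than in Tn and 3 lower by edgeR's quasi-likelihood test at a Benjamini-Hochberg adjusted p under 0.05 over all 14332 genes. Over all genes 24.5% were called higher and 24.5% lower, 48.9% in either direction. At day 5, 7 receptors were called higher and 3 lower in Teff2 than in Tn, against 25.6% of all genes higher, 23.3% lower and 48.9% in all. In Tex 6 were called higher and 3 lower, against 27.3% higher, 25.6% lower and 52.9% in all. The median log2 fold change of the 10 receptors was 1.47, 1.37 and 1.31 in Teff1, Teff2 and Tex, and that of all genes was -0.06, 0.00 and 0.00. These comparisons share the Tn libraries. The receptors that rose in all 3 were Tnfrsf9, Tnfrsf4, Tnfrsf18, Tnfrsf8, Icos and, by a small amount, Tnfrsf1b, and those that fell in all 3 were Tnfrsf14, Cd27 and Cd226. Cd28 was called in Teff2 only, and its call depended on the libraries included.

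**Figure D1:**
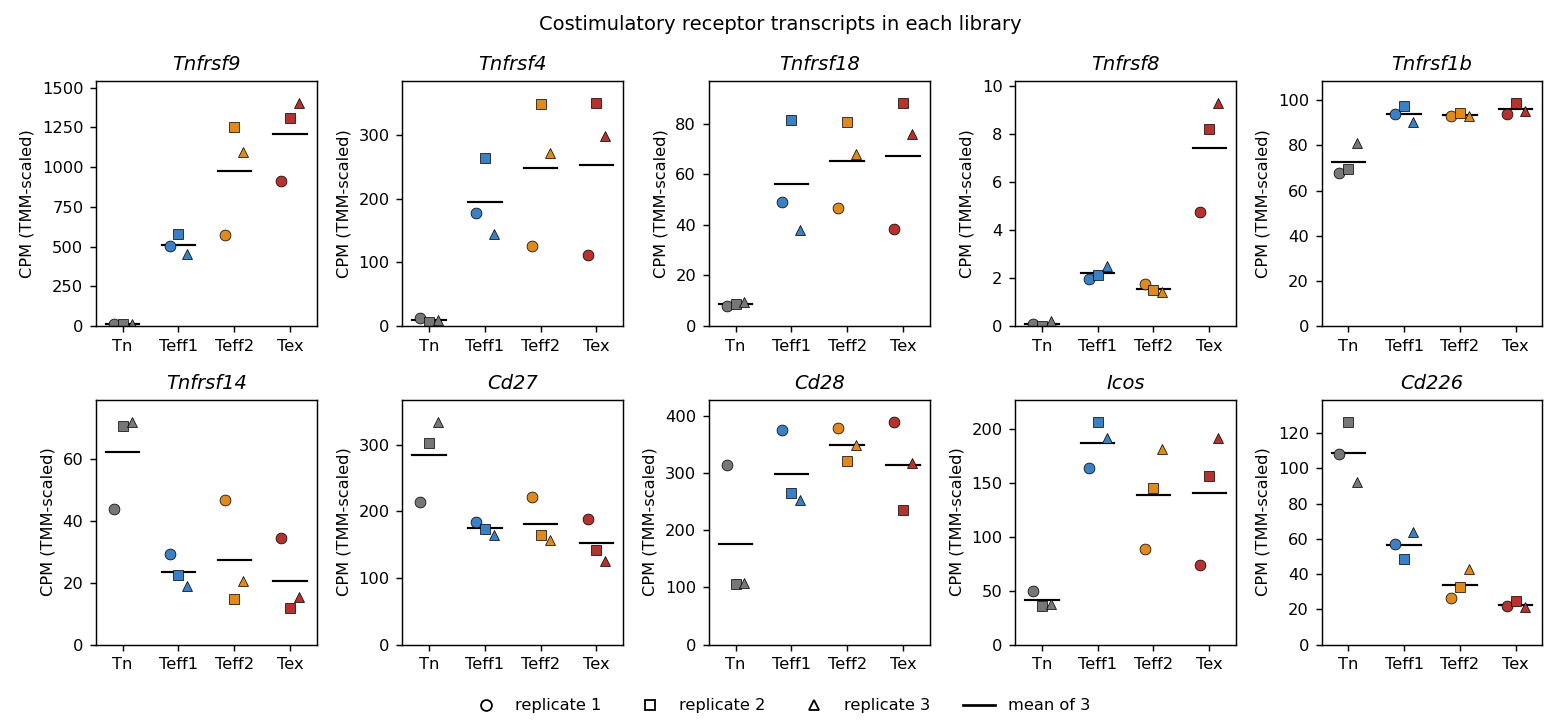
Level of each of the 10 receptor transcripts (CPM, TMM-scaled, linear axis from 0) in each of the 12 libraries by state; symbols give the replicate number and bars the mean of 3. The Tnfrsf9 libraries lie at 11.8 to 13.3 CPM in Tn and at 453 to 1402 CPM in the activated states, while the Cd226 libraries lie at 92.4 to 126 CPM in Tn and at 21.2 to 24.6 CPM in Tex.

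**Figure D2:**
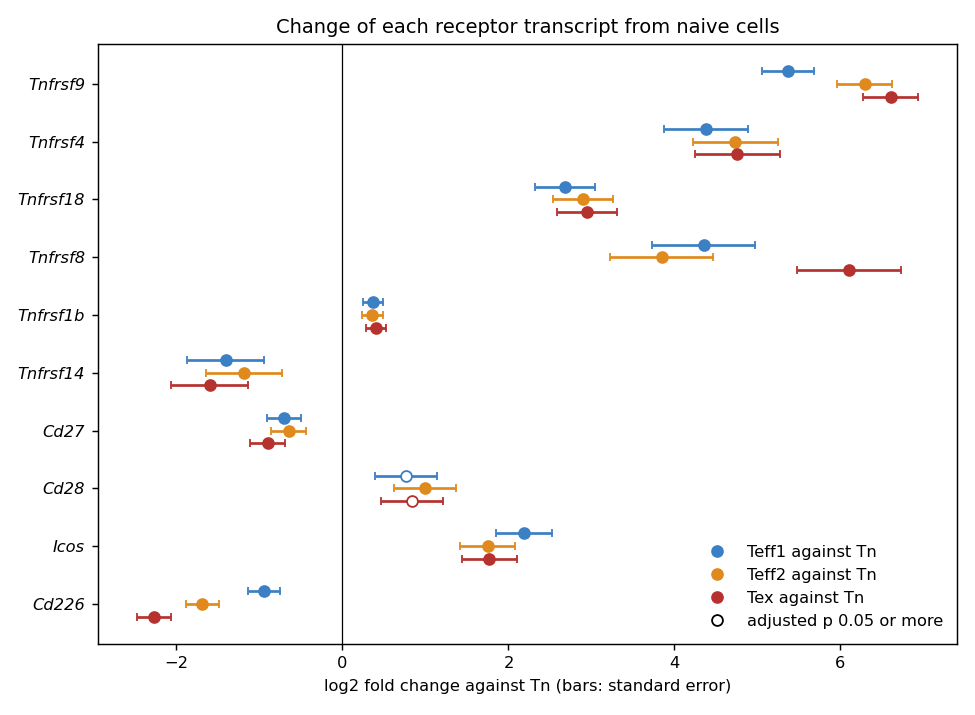
Fitted log2 fold change of each receptor against Tn with its standard error, for Teff1, Teff2 and Tex; open points mark an adjusted p of 0.05 or more. Tnfrsf9 has the values 5.37, 6.29 and 6.61, Cd226 the values -0.95, -1.69 and -2.27, and the open points belong to Cd28.

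Tnfrsf9 encodes CD137, a receptor that sustains division and survival of activated CD8+ T cells when bound by its ligand CD137L. Its level was 13.3, 11.8 and 12.1 CPM in the Tn libraries, 504, 582 and 453 CPM in Teff1, 572, 1251 and 1096 CPM in Teff2 and 911, 1310 and 1402 CPM in Tex. The Tn libraries lay far below all activated libraries, Tex lay above Teff1 without overlap, and Teff2 overlapped both. By edgeR's quasi-likelihood test the log2 fold change against Tn was 5.37 ± 0.32 (SE) in Teff1, 6.29 ± 0.33 in Teff2 and 6.61 ± 0.33 in Tex, or 41.4-, 78.5- and 97.4-fold, with adjusted p of 1.79e-06, 5.23e-07 and 2.97e-07. Tex exceeded Teff1 by a log2 fold change of 1.24 (SE 0.26, adjusted p = 0.0295, edgeR). That call was lost when any one of the 3 Teff1 libraries, Tex replicate 2 or Tex replicate 3 was left out (adjusted p 0.0844 to 0.121, log2 fold change never under 1.11 in the 12 fits with 1 library left out). Teff2 against Teff1 gave 0.92 (SE 0.26, adjusted p = 0.148, edgeR), which passed when Teff2 replicate 1 was left out (adjusted p = 0.0247).

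Tnfrsf4 encodes OX40 and Tnfrsf18 encodes GITR, receptors that are known on activated and on regulatory T cells and whose genes lie side by side. Tnfrsf4 was at 12.1, 6.61 and 9.46 CPM in Tn, 178, 264 and 144 CPM in Teff1, 127, 350 and 272 CPM in Teff2 and 113, 351 and 298 CPM in Tex. All activated libraries lay above all Tn libraries, and the 3 activated states overlapped throughout. Against Tn the log2 fold changes were 4.38, 4.73 and 4.76 (SE 0.51 each), which is 20.9-, 26.6- and 27.1-fold, with adjusted p of 5.85e-05, 3.27e-05 and 2.67e-05 by edgeR. Tnfrsf18 was at 8.02, 8.65 and 9.57 CPM in Tn, 49.2, 81.4 and 37.9 CPM in Teff1, 46.8, 80.9 and 68.3 CPM in Teff2 and 38.2, 88.2 and 75.9 CPM in Tex. Here too the Tn libraries stood below the rest and the activated states overlapped. Its rise was smaller, with log2 fold changes of 2.68, 2.90 and 2.95 (SE 0.36 each) and adjusted p of 1.48e-04, 8.64e-05 and 6.66e-05 by edgeR. Within each library the ratio of Tnfrsf4 to Tnfrsf18 counts, which is not corrected for length, was 1.5, 0.764 and 0.989 in Tn and 2.70 to 4.32 in the 9 activated libraries. The ratio did not overlap between naive and activated cells. Sdf4, which overlaps Tnfrsf4, was at 212 to 239 CPM in Tn and at 250 to 487 CPM in the activated libraries, and Gm16008, which overlaps Tnfrsf18, did not exceed 3.93 CPM. The 6 markers of CD4 and regulatory T cells summed to 123, 47.3 and 143 CPM in Tn and to 39.7 to 216 CPM in the activated libraries, whose part in these values was not tested.

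Tnfrsf8 encodes CD30, the receptor for CD30L, and was higher in every Tex library than in any other library. It had 1, 0 and 4 counts in the Tn libraries, 41, 45 and 41 in Teff1, 34, 23 and 26 in Teff2 and 86, 152 and 178 in Tex. In CPM this was at most 0.215 in Tn, 1.95, 2.14 and 2.49 in Teff1, 1.73, 1.48 and 1.40 in Teff2 and 4.72, 8.21 and 9.26 in Tex. No 2 of the 4 states overlapped, and the order of levels was Tn, Teff2, Teff1, Tex. With 5 counts in all of Tn, the ratio to Tn was 21.0 (95% interval 8.76 to 65.7) in Teff1, 15 (6.16 to 47.3) in Teff2 and 71.9 (30.6 to 223) in Tex; these exact binomial intervals cover counting error only. All 3 differences were called by edgeR (adjusted p = 2.16e-04, 4.58e-04 and 1.97e-05). With so few counts in Tn, Tnfrsf8 passed the filter on low counts through the activated libraries, where it is higher. Tex against Teff1 gave a log2 fold change of 1.75 (SE 0.46, adjusted p = 0.0681, edgeR), which missed the threshold here and passed in 8 of 23 alternatives. Among these were DESeq2 (adjusted p = 4.16e-04), limma on the authors' normalized values (adjusted p = 0.0125), edgeR on the 6 libraries compared (adjusted p = 0.0459) and edgeR without Tn replicate 2 or Tn replicate 3 (adjusted p = 0.0499 and 0.0337).

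Teff2 and Tex were both taken at day 5 and differ in the labels only by TIM-3, and libraries of the same number deviated together in these 2 states, so they were also compared within pairs. Tnfrsf8 in Tex was 2.72, 5.53 and 6.63 times its level in Teff2 in replicates 1, 2 and 3. Within pairs the log2 fold change was 2.20 (SE 0.26, adjusted p = 0.00818, edgeR with the replicate number as a block on the 6 day 5 libraries). Tnfrsf8 was the 1 receptor of 10 that was called, and it was higher in Tex. In this paired fit 1.69% of 13096 genes were called, 0.962% higher and 0.725% lower. In edgeR neither the block nor the restriction to these 6 libraries alone gave the call: the difference was 2.21 (SE 0.42, adjusted p = 0.406, edgeR) with the block on all 12 libraries and 2.25 (SE 0.36, adjusted p = 0.9996, edgeR) on the 6 libraries with no block. In the fit over all 12 libraries with no block, Tnfrsf8 gave 2.26 (SE 0.47, unadjusted p = 4.76e-04, adjusted p = 1, edgeR), and no receptor was called. That fit called 0.00698% of all genes higher and 0% lower, 0.00698% in all. In it 2 receptors, Tnfrsf8 and Cd226, had an unadjusted p under 0.05, and DESeq2 on the same 12 libraries called Tnfrsf8 alone (adjusted p = 1.43e-04), whereas limma on the authors' normalized values called none. The other 9 receptors did not pass within pairs. Tnfrsf14 was at 0.738, 0.800 and 0.740 times its Teff2 level, Cd27 at 0.847, 0.867 and 0.802 times and Cd226 at 0.832, 0.757 and 0.496 times, each lower in 3 of 3 pairs (adjusted p = 0.0859, 0.136 and 0.0924, edgeR, paired fit). Tnfrsf9 was at 1.59, 1.05 and 1.28 times its Teff2 level, higher in 3 of 3 pairs (adjusted p = 0.161, edgeR, paired fit). Tnfrsf4, Tnfrsf18 and Icos lay between 0.816 and 1.11 times their Teff2 levels in every pair, with standard errors of 0.09, 0.10 and 0.09 on the log2 scale, and Tnfrsf1b between 1.01 and 1.05 times. Whether TIM-3+ and TIM-3- cells carry equal levels of these receptors is not shown by a p that misses the threshold.

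**Figure D3:**
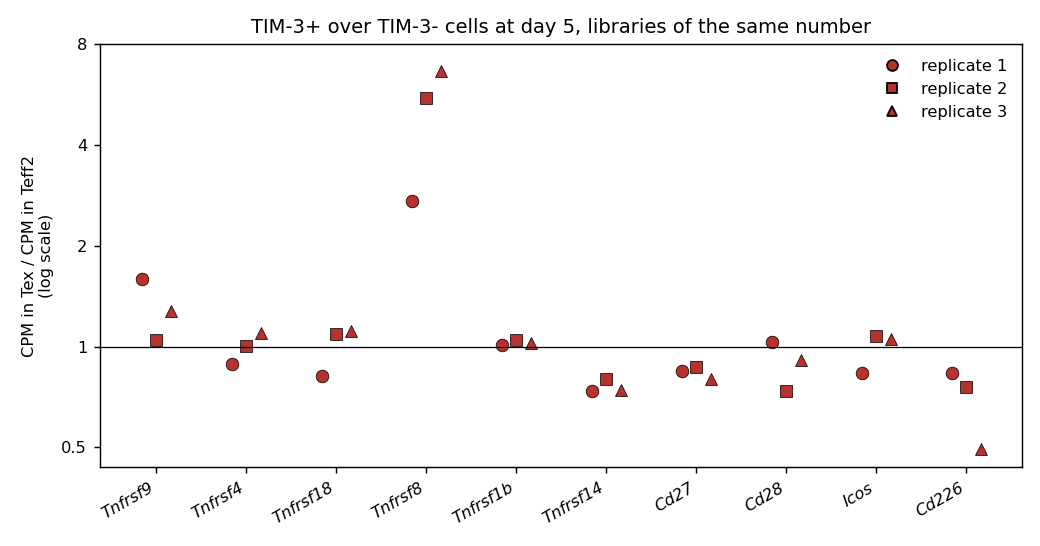
Level of each receptor in Tex divided by its level in Teff2 for the libraries of the same replicate number at day 5 (log axis, 1 means equal). Tnfrsf8 lies at 2.72, 5.53 and 6.63, and the other 9 receptors lie between 0.496 and 1.59.

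Tnfrsf1b, Tnfrsf14 and Cd27 were present in naive cells and moved by less than Tnfrsf9, Tnfrsf4, Tnfrsf18 and Tnfrsf8. Tnfrsf1b encodes TNFR2, a receptor for TNF and lymphotoxin alpha, and was at 67.8, 69.4 and 80.9 CPM in Tn, 93.7, 97.4 and 90.2 CPM in Teff1, 93.0, 94.4 and 92.9 CPM in Teff2 and 93.8, 98.7 and 95.3 CPM in Tex. The 9 activated libraries thus lay within a narrow band above all Tn libraries. In the 3 states the log2 fold change was 0.37, 0.36 and 0.40 (SE 0.12 each) with adjusted p = 0.0249, 0.0264 and 0.0152 by edgeR. These calls were lost without Tn replicate 1 or 2, and also without Teff1 replicate 2 for Teff1 and Teff2 replicate 3 for Teff2 (adjusted p 0.0534 to 0.0966). They were lost as well under upper-quartile scaling (adjusted p 0.0684 to 0.136), which lowered the median of all genes by 0.11 to 0.14 in these comparisons.

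Tnfrsf14 encodes HVEM, which binds LIGHT and also the inhibitory receptors BTLA and CD160. Its level was 43.8, 70.6 and 71.9 CPM in Tn, 29.1, 22.3 and 18.7 CPM in Teff1, 46.7, 14.6 and 20.6 CPM in Teff2 and 34.4, 11.7 and 15.2 CPM in Tex. Teff1 and Tex lay below all Tn libraries, whereas Teff2 replicate 1 lay above Tn replicate 1. The log2 fold change was -1.41, -1.18 and -1.60 (SE 0.46 each) in Teff1, Teff2 and Tex, with adjusted p of 0.0244, 0.0496 and 0.0123 by edgeR. Leaving out 1 library ended the call for Teff1 in 4 of 12 cases (Tn replicates 2 and 3, Teff1 replicates 2 and 3, adjusted p 0.0600 to 0.0881) and for Tex in 2 (Tex replicates 2 and 3, adjusted p 0.0505 and 0.0506). For Teff2 it did so in 8 cases (Tn replicates 2 and 3, each Teff1 library, Teff2 replicates 2 and 3, Tex replicate 3, adjusted p 0.0560 to 0.180). Cd27 encodes the receptor for CD70, which supports the survival of activated and memory T cells. It was at 214, 303 and 334 CPM in Tn, 184, 173 and 165 CPM in Teff1, 222, 164 and 157 CPM in Teff2 and 188, 142 and 126 CPM in Tex. Only Teff2 replicate 1 reached the range of Tn. Against Tn it differed by a log2 fold change of -0.70, -0.65 and -0.90 (SE 0.21 each) with adjusted p = 0.0155, 0.0227 and 0.00374 by edgeR. The call was lost for Teff1 without Tn replicate 3 or Teff1 replicate 3 (adjusted p 0.0561 and 0.0724), and for Teff2 without Tn replicate 2 or 3 or Teff2 replicate 2 or 3 (adjusted p 0.0643 to 0.105). Against Tn replicate 2 alone, the naive library with the lowest B cell and MHC class II sums, Teff1 was lower by a log2 fold change of -1.61 for Tnfrsf14 (adjusted p = 0.0951) and -0.81 for Cd27 (adjusted p = 0.0603) by edgeR, with the lone library assumed to vary like the others. That library still had 580 CPM of B cell markers, and the part of other cells in these differences was not tested. In bulk RNA fewer cells of a type and less RNA per cell cannot be told apart.

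Cd28 encodes the receptor engaged by one of the stimulating antibodies. Its level was 313, 105 and 108 CPM in Tn, 376, 265 and 254 CPM in Teff1, 378, 321 and 348 CPM in Teff2 and 390, 236 and 318 CPM in Tex. Tn replicate 1 lay within the range of the activated libraries and the other 2 Tn libraries lay below all of them. Teff1, Teff2 and Tex gave log2 fold changes against Tn of 0.76, 0.99 and 0.84 (SE 0.37 each), with adjusted p of 0.107, 0.0442 and 0.0751 by edgeR. Without Tn replicate 1 all 3 differences passed, at 1.48 (adjusted p = 0.00132), 1.71 (adjusted p = 5.93e-04) and 1.56 (adjusted p = 8.14e-04) by edgeR. The Teff2 call was lost in 7 of the 12 fits with 1 library left out, those without Tn replicates 2 or 3, Teff1 replicate 2, any Teff2 library or Tex replicate 3 (adjusted p 0.0505 to 0.152). Ctla4, the inhibitory receptor that competes for the CD28 ligands, was also high in Tn replicate 1, with 84.3, 10.5 and 9.51 CPM in Tn. The count ratio of Cd28 to Ctla4 was 3.72, 10.1 and 11.4 in Tn and 1.49, 0.772 and 1.01 in Teff1. At day 5 it was 3.41, 1.28 and 0.719 in Teff2 and 5.77, 0.686 and 0.593 in Tex. Replicate 1 thus had the highest ratio in both day 5 states, and of the 6 day 5 libraries 5 lay below all Tn values, the exception being Tex replicate 1.

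Icos encodes the inducible relative of CD28 that binds ICOSL. It was at 49.8, 36.0 and 37.5 CPM in Tn, 163, 206 and 191 CPM in Teff1, 88.7, 145 and 181 CPM in Teff2 and 74.1, 156 and 191 CPM in Tex. Every activated library exceeded every Tn library, and the activated states overlapped. Its log2 fold changes against Tn were 2.18 ± 0.34 (SE), 1.75 ± 0.33 and 1.77 ± 0.33, with adjusted p of 3.54e-04, 0.00127 and 0.00102 by edgeR. The count ratio of Icos to Cd28 was 0.159, 0.342 and 0.346 in Tn and 0.435, 0.777 and 0.754 in Teff1, without overlap, while at day 5 it ran from 0.190 to 0.661 and overlapped Tn.

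Cd226 encodes DNAM-1, an adhesion and activating receptor for CD155 (Pvr) and nectin-2, and was lower in all activated states than in Tn (chr18:89176954-89272232). Its level was 108, 126 and 92.4 CPM in Tn, 57.2, 48.3 and 64.1 CPM in Teff1, 26.3, 32.4 and 42.7 CPM in Teff2 and 21.9, 24.6 and 21.2 CPM in Tex. None of the 4 states overlapped another, in the order Tn, Teff1, Teff2, Tex. Its log2 fold changes against Tn were -0.95 ± 0.20 (SE), -1.69 ± 0.20 and -2.27 ± 0.21, with adjusted p of 0.00221, 6.18e-05 and 8.75e-06 by edgeR. Tex was lower than Teff1 by -1.33 (SE 0.20, adjusted p = 0.00629, edgeR), a call kept in all 12 fits with 1 library left out. That call was lost in 2 of 23 alternatives, without all libraries of replicate 2 and without all those of replicate 3 (adjusted p up to 0.202, edgeR). Teff2 against Teff1 gave -0.74 (SE 0.20, adjusted p = 0.125, edgeR) and Tex against Teff2 -0.58 (SE 0.20, adjusted p = 1, unadjusted p = 0.0123, edgeR), so neither step within the activated states passed. The 7 NK cell markers, cells in which Cd226 is also known, summed to 112, 43.7 and 189 CPM in Tn and to 11.8 to 75.7 CPM in the activated libraries. The part of these cells in the Cd226 values was not tested. The count ratio of Cd226 to Tigit, the inhibitory receptor for the same ligands, was 18.5, 232 and 33.1 in Tn and 0.601 to 1.22 in Teff1. It was 0.457, 0.263 and 0.287 in Teff2 and 0.243, 0.191 and 0.119 in Tex. These ratios did not overlap between any of the 4 states.

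Between the activated states few receptors were called. From Teff1 to Teff2 none of the 10 was called by edgeR, while 0.558% of all genes were called higher and 0.112% lower, 0.67% in all. In that comparison 2 receptors, Tnfrsf9 and Cd226, had an unadjusted p under 0.05, and DESeq2 called both (adjusted p = 0.0412 and 0.0269), whereas limma on the authors' normalized values called none. From Teff1 to Tex 1 receptor was called higher, Tnfrsf9, and 1 lower, Cd226, against 2.16% of all genes higher and 0.851% lower, 3.01% in all. DESeq2 and limma on the authors' normalized values called these 2 and also Tnfrsf8, which was higher in Tex (adjusted p = 4.16e-04 and 0.0125). The mean level of Tnfrsf9 was 12.4 ± 0.769, 513 ± 65.0, 973 ± 356 and 1208 ± 261 CPM in Tn, Teff1, Teff2 and Tex, and that of Cd226 was 109 ± 17.1, 56.6 ± 7.92, 33.8 ± 8.28 and 22.5 ± 1.79 CPM (SD, n = 3 each). The levels of Tnfrsf4, Tnfrsf18, Tnfrsf1b, Tnfrsf14, Cd27, Cd28 and Icos overlapped between all pairs of activated states.

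Replicate 1 of the day 5 states departed from replicates 2 and 3 in several receptors, in the same direction in Teff2 and Tex. The level in replicate 1 over the mean of replicates 2 and 3 was 0.408 in Teff2 and 0.347 in Tex for Tnfrsf4, 0.628 and 0.466 for Tnfrsf18, and 0.544 and 0.427 for Icos. It was 0.488 and 0.672 for Tnfrsf9. Tnfrsf14 went the other way, at 2.65 and 2.56, as did Cd27 at 1.38 and 1.40. Tnfrsf1b was even between the replicates, at 0.993 and 0.967. Of the 6 receptors that rose in all activated states, 4 were thus lower in replicate 1 at day 5 in both states, and of the 3 that fell, 2 were higher in it. Cd226, which also fell, was instead lower in replicate 1, at 0.6996 in Teff2 and 0.956 in Tex. Tnfrsf8, which rose, was higher in replicate 1 in Teff2 but lower in Tex, at 0.541. The share of all genes that shifted in this way was not tested, so the pattern is not shown to be particular to the receptors. The G2 and M phase sums of these libraries were also lower in replicate 1, at 979 CPM in Teff2 and 1209 CPM in Tex; the part of these libraries' state in the receptor values was not tested. At day 2 the ratios for the receptors named above lay closer to 1, from 0.822 for Icos to 1.42 for Tnfrsf14. Cd28 did not follow this. Its day 2 ratio, 1.45, lay farther from 1 than its day 5 values (1.13 for Teff2, 1.41 for Tex). The G2 and M phase sums of the 3 Teff1 libraries were 3752, 3137 and 3405 CPM.

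**Figure D4:**
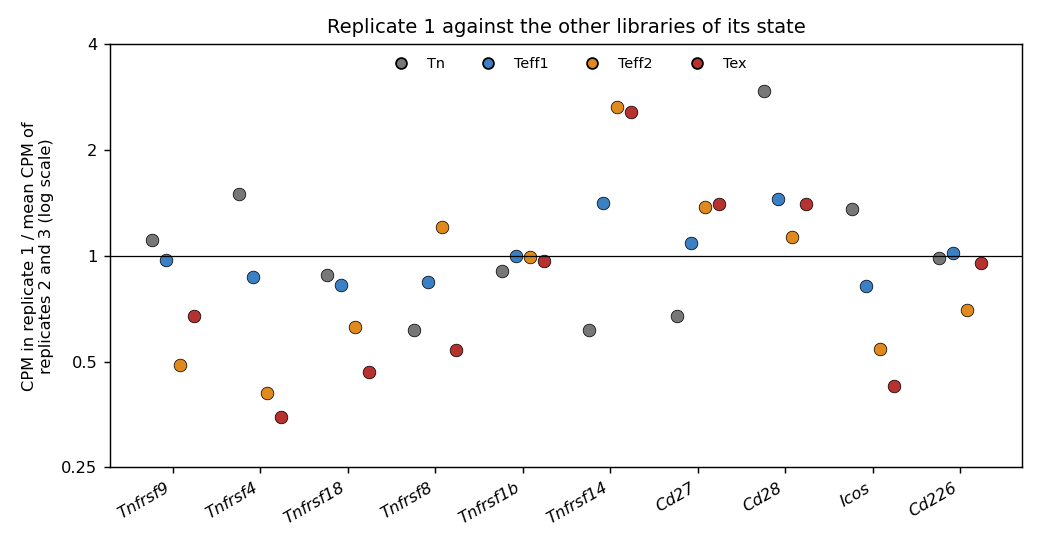
Level of each receptor in replicate 1 divided by the mean of replicates 2 and 3 of the same state (log axis, 1 means equal), with 1 point per state. For Tnfrsf4 the day 5 points lie at 0.408 and 0.347, for Tnfrsf14 at 2.65 and 2.56, and the Tn point of Cd28 lies at 2.93.

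Of the 13 ligand genes of the 10 receptors 12 passed the filter, and 7 were called higher and 2 lower in Teff1 than in Tn. In Teff2 10 were higher and 2 lower, with the same numbers in Tex. Among all genes 24.5%, 25.6% and 27.3% were called higher in Teff1, Teff2 and Tex, and 24.5%, 23.3% and 25.6% lower. Cd70, Tnfsf4, Nectin2 and Cd80 had only 1, 2, 13 and 30 counts over the Tn libraries. They passed the filter through the activated libraries, where they are higher. A call in that direction was thus favoured for them, which limits the comparison with all genes. Tnfsf4, which encodes the OX40 ligand, had 2 counts over the Tn libraries and reached 6.85, 0.998 and 0.788 CPM in Teff1. Its ratio of Teff1 to Tn was 73.5 (95% interval 20.1 to 612, counting error only; adjusted p = 0.0289, edgeR). At day 5 Tnfsf4 was at 65.6, 3.81 and 17.3 CPM in Teff2 and 73.0, 5.08 and 10.8 CPM in Tex, so replicate 1, the lowest for the receptor Tnfrsf4, was the highest for its ligand. Cd80, a ligand of CD28 and CTLA-4, stood at 0.611 ± 0.304 CPM in Tn, 13.5 ± 10.1 CPM in Teff1, 106 ± 55.6 CPM in Teff2 and 100 ± 31.5 CPM in Tex (SD, n = 3 each). It rose in each state against Tn (adjusted p = 3.40e-04, 1.80e-05 and 1.57e-05, edgeR) and rose again from Teff1 to Teff2 and to Tex (adjusted p = 0.0364 and 0.0192, edgeR). Cd86, the other CD28 ligand, fell against its Tn level of 14.7 ± 1.49 CPM, with 5.06 ± 1.52 CPM in Teff1 and 1.63 ± 0.593 CPM in Tex (adjusted p = 0.00249 and 3.30e-05 against Tn, edgeR), and Tex was called lower than Teff1 (adjusted p = 0.0268, edgeR). Icosl was at 31.5, 11.8 and 72.8 CPM in Tn and at no more than 2.65 CPM in any activated library, a difference called in all 3 states (adjusted p = 1.36e-04, 3.82e-04 and 2.19e-04, edgeR). Cd86 and Icosl are also expressed by B cells and antigen-presenting cells, whose marker sums were higher in Tn as given above; their part in these 2 differences was not tested. Tnfsf18, the GITR ligand, did not pass the filter and had 4 counts, all in Tn replicate 1. Its 0 counts in each activated library allow up to 0.143 to 0.194 CPM, the level of 3 counts.

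Of the 5 inhibitory receptors that share ligands with members, 3 were called higher and 1 lower in Teff1 than in Tn. In Teff2 2 were higher and 1 lower, and in Tex 2 were higher and 2 lower. The shares of all genes called in either direction were 48.9%, 48.9% and 52.9%, and 5 genes are few to set against them. Tigit rose to 63.4 ± 16.7 CPM in Teff1 against 3.06 ± 2.65 CPM in Tn (adjusted p = 2.24e-04, edgeR) and Ctla4 rose from 34.8 ± 42.9 to 282 ± 53.5 CPM (adjusted p = 0.0171, edgeR). Cd96 went from 133 ± 24.5 to 51.9 ± 21.8 CPM (adjusted p = 0.00396, edgeR; SD, n = 3 each). Among the receptors for CD155, Tigit therefore rose while Cd226 and Cd96 fell. Btla, a partner of HVEM, is named outside the naming rule given below. It was highest on average in Teff1, at 162 ± 2.04 CPM. Its level was 119 ± 38.2 CPM in Tn, 91.0 ± 6.35 CPM in Teff2 and 62.9 ± 10.9 CPM in Tex (SD, n = 3 each). It was called lower in Tex than in Tn and than in Teff1 (log2 fold change -0.91 and -1.37, adjusted p = 0.00460 and 0.00948, edgeR). None of the ligands and none of these receptors was called between Tex and Teff2, in the fit over 12 libraries or within pairs.

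**Figure D5:**
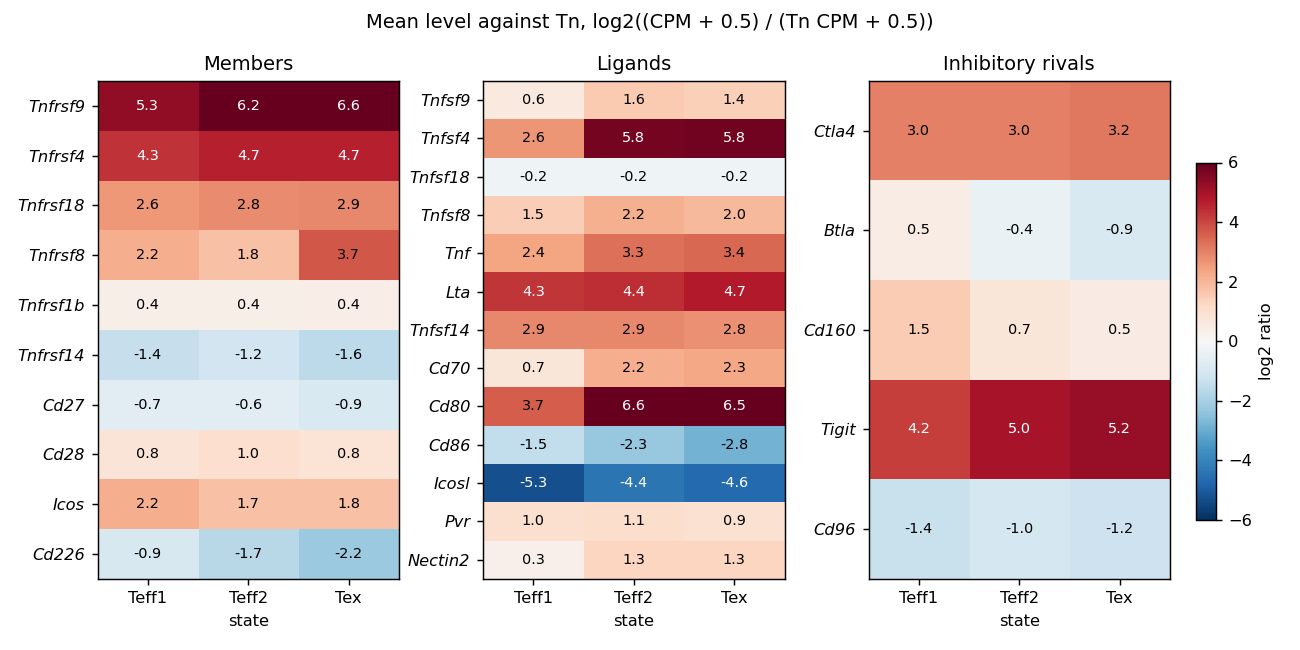
Mean level in Teff1, Teff2 and Tex against Tn as a log2 ratio of mean CPM with 0.5 CPM added, for the 10 receptors, their 13 ligands and 5 inhibitory receptors that share ligands; colours saturate at 6 and numbers give the ratio. The added 0.5 CPM makes values of genes low in Tn, such as Tnfrsf8 and Tnfsf4, smaller than the ratios in the text.

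Of 20 genes that act below the TNF receptor family, 5 were called higher and 7 lower in Teff1 than in Tn. In Teff2 3 were higher and 6 lower, and in Tex 4 were higher and 5 lower. The shares of all genes called in either direction were 48.9%, 48.9% and 52.9%. Median log2 fold changes were -0.11, -0.15 and -0.21 for the list, against -0.06, 0.00 and 0.00 for all genes. The counts are thus not shown to be particular to genes below this receptor family. Bcl2l1, which encodes the survival protein BCL-xL, a known target of these receptors, rose to 103 ± 5.27 CPM in Teff1 against 12.8 ± 2.21 CPM in Tn (log2 fold change 3.01, SE 0.29, adjusted p = 1.90e-05, edgeR). Nfkb2, a subunit of the non-canonical NF-kB pathway, went from 139 ± 44.0 to 320 ± 148 CPM (adjusted p = 0.0478, edgeR). Tnfaip3, which encodes the NF-kB inhibitor A20, fell, but its Tn libraries were far apart at 2006, 457 and 128 CPM against 81.5, 46.0 and 45.6 CPM in Teff1 (adjusted p = 0.00147, edgeR). The adaptor gene Traf5 fell from 42.2 ± 4.27 to 14.1 ± 2.54 CPM (adjusted p = 0.00545, edgeR). Of 17 genes that act below CD28 and ICOS, 2 were called higher and 10 lower in Teff1 than in Tn. The numbers were the same in Teff2, with 2 higher and 11 lower in Tex. Among all genes 24.5%, 25.6% and 27.3% were called higher in the 3 states, and 24.5%, 23.3% and 25.6% lower. Malt1 rose from 160 ± 16.2 to 369 ± 81.6 CPM and Akt2 from 160 ± 2.78 to 231 ± 18.8 CPM in Teff1 (adjusted p = 0.00668 and 0.00899, edgeR). The kinase gene Tec fell from 37.0 ± 10.8 to 9.52 ± 2.36 CPM (adjusted p = 2.10e-04, edgeR; SD, n = 3 each).

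Of 21 other TNF receptor superfamily genes 15 passed the filter, with 1 called higher and 9 lower in Teff1 than in Tn. In each day 5 state 1 was higher and 8 lower. Among all genes 24.5%, 25.6% and 27.3% were called higher in the 3 states, and 24.5%, 23.3% and 25.6% lower. The median log2 fold change of these 15 genes was -1.38, -0.60 and -0.51 in Teff1, Teff2 and Tex. For the 10 costimulatory receptors it was 1.47, 1.37 and 1.31. Both lists were chosen with earlier results of these data known. The part of that choice, of the filter and of other cells in Tn in this contrast was not tested. The largest falls were those of Cd40, with 10.6, 0.545 and 15.6 CPM in Tn against 0.618, 0 and 0.0606 CPM in Teff1 (adjusted p = 0.0126, edgeR), and of Tnfrsf13c, with 23.1, 3.00 and 49.9 CPM in Tn against 0.952, 1.62 and 2.73 CPM in Teff1 (adjusted p = 0.00995, edgeR). Both are B cell receptors, were lowest in Tn replicate 2 as were the B cell sums, and Cd40 overlapped between the states; the part of other cells was not tested. The 1 gene called higher in all 3 states, named after its values were seen, was Tnfrsf11b, which encodes the secreted decoy receptor osteoprotegerin. Its level was 0.112 ± 0.104 CPM in Tn, 0.812 ± 0.394 CPM in Teff1, 6.78 ± 1.90 CPM in Teff2 and 7.87 ± 1.94 CPM in Tex (SD, n = 3 each).

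The genes whose levels were most like each receptor over the 12 libraries were found by Pearson's r of log2 CPM with 0.5 CPM added, among 9083 genes, or 9084 for Tnfrsf8. They are a description, since all points share the same libraries and 4 states. Tnfrsf4 and Tnfrsf18 were close to each other (r = 0.989): Tnfrsf4 was the nearest of all genes to Tnfrsf18, and Tnfrsf18 was the third nearest to Tnfrsf4, after Enkd1 and Abi2. Hif1a, which encodes an oxygen-sensitive transcription factor, came second for Tnfrsf18 (r = 0.979). Tnfrsf9 was nearest to Wnt10b (r = 0.996) and Ero1l (r = 0.992). Icos was nearest to Tdp1 and Fanci (r = 0.989 and 0.988), genes of DNA repair, and Tnfrsf8 to Tm2d2 and Nfkbib (r = 0.963 and 0.939), the latter encoding an inhibitor of NF-kB. Among the receptors that were lower in activated cells, Tnfrsf14 was nearest to Rmnd1 and Slc2a9, Cd27 to Slc26a2 and Trim21, and Cd226 to Cd2ap and Gon4l, with r from 0.956 to 0.977. Tnfrsf1b was nearest to Slc39a1 and Slc9a5 (r = 0.970 and 0.966) and Cd28 to Ksr1 and Klf9 (r = 0.946 and 0.938).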

How the data were processed

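RNA-seq counts of 12 libraries, 3 in each of 4 states, were read from a matrix of whole-number raw counts per gene deposited by the authors. A second matrix deposited by the authors holds normalized values that look like a log2 scale, whose transformation is not given in the sources used here, and it served as an alternative only. Per the submitters' processing notes, the assembly was mm10 and the tools included BWA, Juicer, HISAT2, HTSeq and DESeq2, with no versions. The 4 Hi-C samples were not analysed here. The members, lists, tests and naming rule were chosen with earlier results of these data known. The rule named, per list, up to 2 called genes in each direction with the largest log2 fold change in Teff1 against Tn and at least 2 CPM in the higher state, and the 2 genes most like each receptor, with at least 10 CPM in the highest state and without predicted genes, pseudogenes and antigen receptor segments. One gene that the rule named is not reported here.

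The main test was edgeR's quasi-likelihood F test (edgeR 4.0.16, R 4.3.3) in one fit of all 12 libraries, with TMM factors and edgeR's filter on low counts. The Benjamini-Hochberg adjustment ran over the 14332 genes kept, and the SE is the log2 fold change divided by the root of F. The procedure was tested on simulated data for Teff1 against Tn with 14192 genes. Of genes changed by 3 on the log2 scale 100% were recovered, and 72% of those changed by 1.5. Among unchanged genes 0.0429% were called. In the simulation all genes had the same dispersion (0.0994), and a small set without low-count genes changed, in Teff1 only. The real data differ from this, with 48.9% of genes called, so these rates need not hold for the calls above. Alternatives were upper-quartile factors, no filter on low counts, fits on the 6 libraries compared, the replicate number as a block, DESeq2 1.42.0, limma 3.58.1 on the authors' normalized values, libraries left out, and CPM from plain library totals. Whether replicate numbers pair the libraries was judged from the correlation across genes of deviations from the state means, with 0.5 CPM added. For Tex and Teff2 libraries of equal number correlated at 0.851, 0.781 and 0.752 and libraries of unequal number at 0.119 or less, and they were treated as pairs. In every other comparison at least 1 equal-number correlation was under 0.1. Levels of different genes were not compared, since no exon lengths were used.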

Additional observations from a re-analysis of the deposited data

How the results depend on the processing

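Of the 30 receptor differences against Tn, 28 were called; all 28 kept their sign in each of up to 23 alternatives, and 17 kept the call in each. Under upper-quartile scaling the median of all genes moved by -0.14, -0.11 and -0.12 in Teff1, Teff2 and Tex against Tn. Of the 30 differences between activated states, 23 had an unadjusted p of 0.05 or more. Of these, 13 changed sign in at least 1 alternative, and the fit over 12 libraries gives no direction for those 13. Tnfrsf14 in Tex against Teff2 is among them, although it was lower in every pair as given above. The number of receptors called lower than in Tn was 0 to 3 with libraries left out for Teff1, 1 to 3 for Teff2 and 1 to 3 for Tex. Against Tn replicate 2 alone it was 1 for Teff1 and 1 for Teff2. With the replicate block on 6 libraries it was 1 for Teff2. The number of all genes called lower in Teff1 than in Tn varied as well. It was 3505 of 14332 in the main fit. Without the libraries of replicate 3 it fell to 1572 of 14595, and without Teff2 replicate 1 it rose to 3952 of 14994. A loss of receptor calls is thus not shown to be particular to the receptors. Between Teff1 and Teff2 DESeq2 called 1 receptor higher and 1 lower, and leaving out libraries gave 0 to 1 higher. From Teff1 to Tex the number called higher was 2 with the fit on 6 libraries, 2 with the replicate block on 12 or on 6 libraries, 2 with DESeq2, 2 with limma on the authors' normalized values and 0 to 2 with libraries left out, and the number lower was 0 to 1. Between Tex and Teff2 the block on 6 libraries and DESeq2 each called 1 receptor higher.

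With the replicate block on 12 libraries, Cd28 passed in Teff1 (adjusted p = 0.0125) and in Tex (adjusted p = 0.00774) against Tn in edgeR; for these states the numbers were not shown to pair the libraries, and in none of the 5 unpaired comparisons did every library correlate best with its own number. Over all genes, 80 were called higher and 16 lower from Teff1 to Teff2 and 309 and 122 from Teff1 to Tex, which became 261 and 52, and 557 and 246, with this block, and 371 and 126, and 671 and 376, with DESeq2. From Teff2 to Tex 1 gene was called, and also 1 with the block on 12 libraries and 0 on the 6 libraries with no block, against 126 higher and 95 lower with the block on the 6 libraries and 5 with DESeq2. Receptors of few counts, Tnfrsf8 above all in Tn, are limited by depth. Each state has 3 libraries, and the causes of these shifts were not tested.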
